A study of Homo sapiens with 24 samples.

Results

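The TNF superfamily consists of trimeric ligands, most of them membrane-bound or shed cytokines, and of the receptors that they bind. Its members were taken by gene name: every gene named TNFSF or TNFRSF with a number, together with TNF, LTA, LTB, LTBR, CD40, CD40LG, CD70, CD27, FASLG, EDAR and NGFR. This gave 44 genes of 57820 in the count tables, 18 of them ligand genes and 26 receptor genes. RNA-seq had been performed in 24 libraries of human osteosarcoma cells, 3 in each of 8 groups. AID-DIvA cells derive from U2OS and carry an integrated vector for the restriction enzyme AsiSI, which enters the nucleus upon addition of 4-hydroxytamoxifen. In this line, WT cells and cells with a knockout of ID3 (KO), an inhibitor of basic helix-loop-helix transcription factors, were left untreated or received the HDAC inhibitor (HDACi) mocetinostat for 24 h and then recovered for 24 h in fresh medium without the drug. WT and ID3-KO U2OS cells were left untreated or received mocetinostat and were collected without that recovery, which is inferred from the sample titles and the methods rather than stated for each library. The labels of these libraries name no 4-hydroxytamoxifen, and the mocetinostat dose, the way the KO cells were made and whether they are 1 clone were not given in the sources used here. Control libraries are called untreated here, as in their titles, whereas supplementary figure titles of the paper name DMSO as the control.

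The comparisons asked how HDAC inhibition changed transcription in cells with and without ID3, before and after recovery. Because every library before recovery came from U2OS and every library after recovery from AID-DIvA, the stage, the cell line and the experiment cannot be told apart. In the AID-DIvA libraries the treatment entry of the labels contradicts the sample title and library name. The titles were followed, and under the treatment entry every treatment direction in AID-DIvA cells would turn around, and the comparison of untreated genotypes would use the other 6 libraries. The differences between the genotypes in the response after recovery would then change sign. Differences between the stages would take other values. In U2OS cells, whose labels do not contradict each other, NGFR and TNF rose with treatment, as they did in AID-DIvA cells under the titles. These genes were singled out after their values were seen. TNFRSF14 and LTBR fell with treatment in U2OS cells and rose in AID-DIvA cells under the titles. Which entry is right was not tested. Libraries held 37878751 to 76906266 counts. Replicate 1 of the untreated WT U2OS cells stood apart: its counts differed from those of the other replicates with a chi-square per gene of 103 and 91.1, against 4.32 between the other two, and no other pair of replicates exceeded 27.3. Where values without it are given below, they are called values without the deviating library. They are not given for every member, nor for the gene lists beside the family. ID3 itself was at 29.3 to 40.6 CPM (counts scaled to library size) in the KO U2OS libraries against 52.1 to 89.3 in WT, and in untreated AID-DIvA cells at 32.0 to 38.8 in KO against 47.9 to 51.9 in WT, so reads over the gene were still counted in KO cells. In treated AID-DIvA cells it was at 61.1 to 67.3 CPM in KO against 103 to 129 in WT. The treated KO libraries of this line thus stood above its untreated WT libraries. RNA counts do not measure the protein, and the paper reports a Western blot check of the knockout in both lines. With treatment ID3 changed on the log2 scale by 0.90 in KO and 1.24 in WT cells after recovery, and by 0.22 and 0.40 before it. COL1A1, a bone matrix gene, and RUNX2, an osteoblast regulator, were expressed in every group, whereas the osteoblast genes SP7 and BGLAP had group means of at most 0.0513 and 0.558 CPM. The summed level of 8 osteoblast and mesenchymal markers was 3215 to 4669 CPM in untreated and 2224 to 3015 CPM in treated libraries. Of 6 T and B lymphocyte markers, PTPRC, CD3E and MS4A1 had group means of at most 0.350 CPM, while CD3D had group means of 0.222 to 0.721 CPM in untreated and 1.05 to 2.40 CPM in treated cells, and the summed level of the 6 was 0.893 to 1.80 CPM in untreated and 1.52 to 3.48 CPM in treated libraries. The summed level of 6 myeloid markers was 1.16 to 3.16 CPM in untreated and 4.16 to 10.1 CPM in treated libraries, with LYZ at a group mean of at most 0.0125 CPM and ITGAM at group means of 0.555 to 1.51 CPM in untreated and 1.88 to 5.26 CPM in treated cells. Markers of endothelial cells (2 in the tables) summed to 1.6 to 7.26 CPM in untreated and 2.74 to 11 CPM in treated libraries, and 4 epithelial markers to 282 to 441 and 253 to 434 CPM. Their part in the results was not tested.

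Ligands of the superfamily trimerize their receptors. Receptors with a cytoplasmic death domain, such as TNFRSF1A, can recruit adaptors that lead to caspase activation. Many receptors of the family, with or without this domain, activate NF-kappaB and JNK through TRAF proteins. In immune cells the family controls costimulation, survival and lymphoid organ formation, and in bone TNFSF11 (RANKL), TNFRSF11A (RANK) and the soluble decoy receptor TNFRSF11B (osteoprotegerin) control osteoclast formation.

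The promoters of 4 members that changed with treatment, and that carry or lack the form GGGANNNNCC of the kappaB motif, are shown because TNF and LTB are neighbouring ligand genes of the same chromosome 6 locus, TNFRSF14 moved in opposite directions before and after recovery, and TNFRSF21 rose at both stages. Each sequence runs 5′ to 3′ from 250 bases before to 50 bases after a RefSeq start on GRCh38.p14, and capitals mark matches to the kappaB form on either strand. TNF lies on the plus strand at chr6:31575315-31575614, LTB on the minus strand at chr6:31582376-31582675, TNFRSF14 on the plus strand at chr1:2556121-2556420 and TNFRSF21 on the minus strand at chr6:47309856-47310155.
TNF: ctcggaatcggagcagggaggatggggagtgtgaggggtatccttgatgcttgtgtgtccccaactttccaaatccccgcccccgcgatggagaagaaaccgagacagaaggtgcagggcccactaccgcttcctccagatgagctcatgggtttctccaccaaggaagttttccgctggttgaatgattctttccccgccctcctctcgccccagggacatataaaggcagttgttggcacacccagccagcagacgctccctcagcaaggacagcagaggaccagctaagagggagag
LTB: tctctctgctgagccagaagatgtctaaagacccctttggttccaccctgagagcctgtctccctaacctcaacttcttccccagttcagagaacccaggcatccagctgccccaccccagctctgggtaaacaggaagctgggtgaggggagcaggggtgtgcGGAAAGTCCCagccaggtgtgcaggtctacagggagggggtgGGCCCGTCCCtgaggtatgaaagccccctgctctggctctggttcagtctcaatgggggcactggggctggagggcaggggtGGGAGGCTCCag
TNFRSF14: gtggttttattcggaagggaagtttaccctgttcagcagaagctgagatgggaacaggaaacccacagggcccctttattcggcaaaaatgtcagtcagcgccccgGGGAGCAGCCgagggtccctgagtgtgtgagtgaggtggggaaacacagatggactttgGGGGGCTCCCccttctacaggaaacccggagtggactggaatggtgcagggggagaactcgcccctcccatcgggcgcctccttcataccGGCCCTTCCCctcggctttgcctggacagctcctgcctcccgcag
TNFRSF21: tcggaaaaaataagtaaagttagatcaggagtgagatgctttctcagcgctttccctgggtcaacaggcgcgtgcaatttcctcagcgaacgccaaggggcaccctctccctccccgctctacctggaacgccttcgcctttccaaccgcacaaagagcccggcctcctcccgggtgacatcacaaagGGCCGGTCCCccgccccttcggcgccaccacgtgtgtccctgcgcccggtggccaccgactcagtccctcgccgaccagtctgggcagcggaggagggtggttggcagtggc
Counting from the start base as 0, LTB held 3 matches, at -86, -44 and 38, TNFRSF14 held 3, at -144, -85 and 5, TNFRSF21 held 1, at -62, and the TNF window held none. The windows shown are a selection. Among other members that changed, TNFRSF19 (in either of its windows), TNFRSF1B, TNFSF9, TNFSF15, TNFSF4, TNFRSF1A and LTBR held no match. TNFRSF9, TNFRSF25, TNFSF13 and TNFSF14 held at least 1 in a window. The TATA box letters TATAAA were found once in the TNF window. Promoters were matched for 27 members, with 34 start sites, and 17 members had no entry in the table used. The kappaB form occurred in 41.2% of the 34 windows and in 25.6% of all 35116 promoters of the table. The E-box form CANNTG, searched because ID proteins bind the E-box factors, occurred in 91.2% and 68.7%, the GC box GGGCGG in 55.9% and 45.0% and TATAAA in 17.6% and 11.5%. The forms were searched on both strands and may overlap, and a match is a description of the letters, not of a bound site. Other forms of the kappaB motif were not searched, so the TNF window is not shown to lack a kappaB site.

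Levels of the family in these cells were carried by receptors. Only 7 members exceeded a group mean of 50 CPM: TNFRSF12A, TNFRSF1A, LTBR, TNFRSF10B, CD40, TNFRSF21 and NGFR. Per kilobase of exonic sequence, TNFRSF12A (FN14), the receptor of the ligand TWEAK, stood highest in untreated WT U2OS cells at 109 CPM per kb, followed by TNFRSF1A at 38.0, CD40 at 21.4, TNFRSF10B at 17.6 and LTBR at 16.4. The levels of CD40, TNFRSF10B and LTBR lay close to each other in this order. CD70 and TNFSF9 were the ligand genes with the highest level per length, at 8.34 and 7.57 CPM per kb. At the other end, 19 members stayed below 1 CPM in every group mean, and 3 of them, TNFSF12-TNFSF13, TNFRSF6B and CD40LG, had no count in any library. The first 2 of these share bases with overlapping genes on the same strand. The edgeR test was possible for 31 members in at least 1 comparison, since the rest had too few counts. In these bulk samples, fewer cells that express a gene and less RNA of it per cell cannot be told apart.

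A member is said below to have risen or fallen when its edgeR adjusted p was under 0.05, and to have been called when its log2 fold change also passed 1 in either direction. Before recovery, 7 of 26 tested members were called higher and 4 lower in KO U2OS cells, where 14.6% of all genes tested were called higher and 5.77% lower. In WT U2OS cells, 11 of 30 were called higher and 3 lower, against 13.6% and 5.06% of all genes. Without the deviating library these counts were 11 and 4, and no share of all genes is given for that fit. DESeq2, which filters on low counts in another way, called 10 members higher in KO and 12 in WT cells. After recovery, 4 of 24 were called higher in KO AID-DIvA cells and 5 of 26 in WT cells, against 4.90% and 4.86% of all genes. The 5 in WT cells include TNFSF8, and the 4 called lower in KO U2OS cells include CD27. Of the stranded counts of these genes, 9.09% and 0.487% were on the gene's strand. Members called lower after recovery numbered 0 in either genotype by edgeR and by DESeq2, against 2.56% and 2.52% of all genes, with 2 in KO and 4 in WT lower at an unadjusted p under 0.05. The median log2 change of the tested members was 0.27 in KO and 0.09 in WT before recovery, against 0.00 and 0.01 over all genes, and 0.43 in KO and 0.30 in WT after recovery, against -0.02 and -0.00. At an adjusted p under 0.05 alone, 12 members rose and 10 fell in KO cells before recovery, against 35.8% and 34.0% of all genes, and 13 rose and 10 fell in WT cells, against 26.0% and 22.9%. After recovery 14 rose and 2 fell in KO cells, against 20.2% and 19.9%, and 12 rose and 3 fell in WT cells, against 23.9% and 23.0%. Since members had to pass a filter on low counts to be tested, these counts and medians do not describe all 44.

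**Figure D1:**
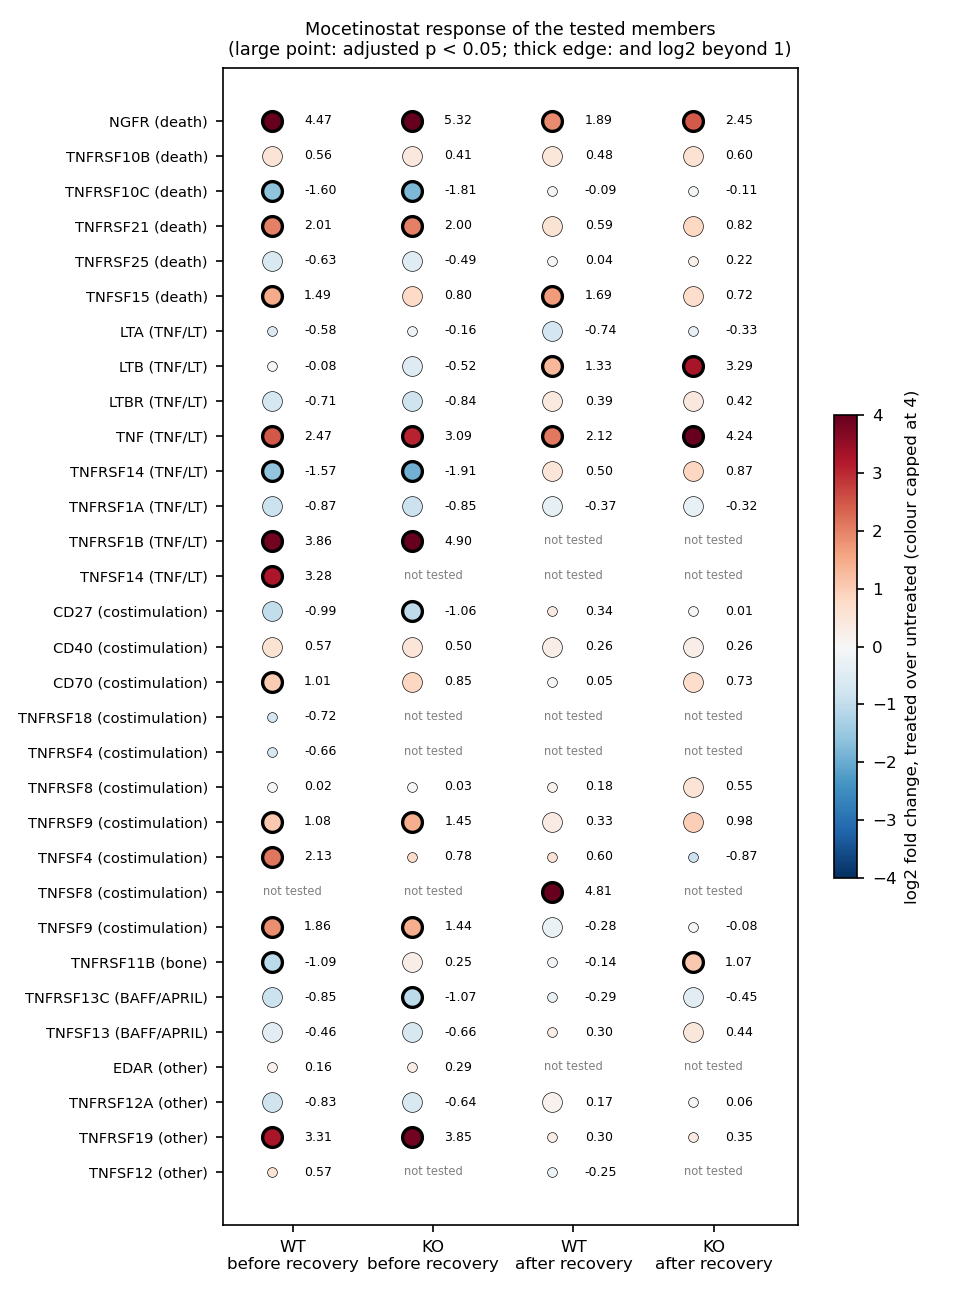
Log2 fold change of mocetinostat-treated over untreated cells for the tested members, in KO and WT cells before (U2OS) and after (AID-DIvA) recovery; large points have an edgeR adjusted p under 0.05 and thick edges also a log2 fold change beyond 1. NGFR and TNF were called higher in all 4 comparisons, and TNFRSF14 and TNFRSF10C were called lower in both comparisons before recovery.

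Among the receptors with a death domain, NGFR (p75NTR, ENSG00000064300.4, chromosome 17, 47572655 to 47592379), the low-affinity neurotrophin receptor, was called higher in all 4 treatment comparisons. Before recovery it went from 4.34, 4.86 and 4.51 CPM in untreated to 205, 161 and 181 CPM in treated KO cells, and from 6.46, 5.45 and 4.76 to 120, 122 and 125 CPM in WT cells. After recovery it went from 3.02, 2.97 and 3.83 to 21.3, 15.6 and 16.8 CPM in KO and from 2.63, 3.45 and 3.13 to 9.68, 12.4 and 12 CPM in WT cells. Every treated library exceeded every untreated library of its genotype at both stages. NGFR rose by 5.32 on the log2 scale in KO (SE 0.09, edgeR adjusted p = 4.8e-19) and by 4.47 in WT cells before recovery (SE 0.13, edgeR adjusted p = 6.3e-07), the latter by 4.58 without the deviating library. After recovery the rise was 2.45 in KO (SE 0.14, edgeR adjusted p = 1.1e-06) and 1.89 in WT cells (SE 0.12, edgeR adjusted p = 3.2e-08). The rise before recovery was larger in KO than in WT cells by 0.86 (SE 0.15, edgeR adjusted p = 0.0077), and by 0.74 without the deviating library (adjusted p = 7.7e-04 in edgeR). After recovery the same difference was 0.57 and did not pass the test (SE 0.20, edgeR adjusted p = 0.23).

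TNFRSF21 (DR6, ENSG00000146072.6, chromosome 6, 47199268 to 47277641), a death receptor studied in neurons and in T cells, was also higher in every treated than untreated library. Its level went from 20.3, 20.4 and 21.4 to 84.7, 80.6 and 82.8 CPM in KO and from 17.4, 18.6 and 18.0 to 69.4, 73.5 and 73.1 CPM in WT cells before recovery, rises of 2.0 (SE 0.05, edgeR adjusted p = 1.6e-19) and 2.01 (SE 0.07, edgeR adjusted p = 1.4e-06). After recovery it was at 33.1, 32.4 and 29.7 CPM against 18.8, 18.0 and 17.0 in KO and at 31.0, 23.7 and 25.3 against 17.4, 18.0 and 18.0 in WT cells, and the log2 rises of 0.82 and 0.59 stayed under the fold threshold. The response thus had the same sign at both stages and in both genotypes. TNFRSF10B (TRAIL-R2), the death receptor for TRAIL, rose in all 4 comparisons, by 0.41 to 0.60, between group means of 69.2 and 133 CPM; it was singled out after its values were seen.

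The decoy receptor for TRAIL without a cytoplasmic death domain, TNFRSF10C (TRAIL-R3, ENSG00000173535.9, chromosome 8, 22941868 to 22974950), moved the other way. Before recovery it dropped from 12.9, 12.6 and 12.9 to 3.80, 2.93 and 4.10 CPM in KO cells and from 16.1, 12.4 and 13.3 to 4.06, 4.90 and 4.70 CPM in WT cells. The treated libraries lay below all untreated libraries, and TNFRSF10C fell by 1.81 (SE 0.09, edgeR adjusted p = 6.5e-14) and by 1.6 (SE 0.13, edgeR adjusted p = 5.3e-05; -1.49 without the deviating library). After recovery, at 10.3, 10 and 9.17 against 10.6, 10.1 and 11.3 CPM in KO and 10.7, 10.9 and 11.1 against 10.8, 11.7 and 12.6 CPM in WT cells, the log2 differences were -0.11 and -0.09 and neither passed the test. The other TRAIL receptors, TNFRSF10A and TNFRSF10D, and TRAIL itself, TNFSF10, had no group mean above 0.256 CPM and were not tested by edgeR with all libraries. TNFRSF10D was counted 24, 7 and 20 times in treated against 0, 2 and 1 times in untreated WT U2OS libraries, and was called higher there by DESeq2 (adjusted p = 0.001) and, without the deviating library, by edgeR (adjusted p = 1.7e-04).

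TNFSF15 (TL1A, ENSG00000181634.7, chromosome 9, 117546915 to 117568406) is the ligand of the death domain receptor TNFRSF25 (DR3). It was called higher in untreated KO cells of both lines: KO cells held 2.75, 2.46 and 2.64 CPM against 0.748, 0.876 and 0.822 in WT AID-DIvA cells, and 2.71, 2.63 and 2.73 against 1.07, 1.02 and 1.71 in U2OS cells. The KO libraries lay above all WT libraries in both lines. The differences were 1.65 (SE 0.13, edgeR adjusted p = 8.1e-08) and 1.10 (SE 0.21, edgeR adjusted p = 0.012), the latter 1.02 without the deviating library. The call in U2OS cells was lost without WT replicate 2 (0.96) and without any single KO replicate (1.09 to 1.12, edgeR adjusted p from 0.057 to 0.061). With treatment TNFSF15 reached 3.73, 4.56 and 4.51 CPM in KO and 3.14, 2.30 and 2.41 CPM in WT cells after recovery, rises of 0.72 (SE 0.12, edgeR adjusted p = 0.0011) and 1.69 (SE 0.16, edgeR adjusted p = 2.0e-06). The rise was thus smaller in KO cells, with an interaction of -0.96 (SE 0.20, edgeR adjusted p = 0.028), and this comparison shares the untreated libraries with the genotype difference above. It did not pass without treated WT replicate 1, any single untreated WT replicate, or untreated KO replicate 1 or 2 (-0.80 to -1.01, edgeR adjusted p from 0.051 to 0.1), nor with a replicate block (-0.95, edgeR adjusted p = 0.071). Before recovery it reached 5.38, 4.58 and 4.10 CPM in KO and 3.35, 3.51 and 3.59 CPM in WT cells, rises of 0.80 and 1.49 (edgeR adjusted p = 1.8e-06 and 6.8e-04), without a difference between the genotypes that passed the test (-0.68, SE 0.23, edgeR adjusted p = 0.19).

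The receptor TNFRSF25 (ENSG00000215788.5, chromosome 1, 6521211 to 6526255) fell before recovery in both genotypes. It was at 6.05, 5.32 and 5.51 CPM in treated against 7.58, 7.61 and 8.63 in untreated KO cells and at 7.0, 6.82 and 6.53 against 13.1, 9.64 and 9.04 in WT cells before recovery, and fell by 0.49 and 0.63 (edgeR adjusted p = 2.6e-05 and 0.0094). Without the deviating library the change in WT cells was -0.46. After recovery, at 7.70, 6.45 and 6.53 against 6.03, 5.64 and 5.97 CPM in KO and 7.12, 6.51 and 6.86 against 6.65, 7.35 and 6.10 in WT cells, the differences of 0.22 and 0.04 did not pass the test. FASLG, the ligand of FAS, had 0 counts in all 12 untreated libraries and did not pass the filter of the edgeR test. Treated U2OS libraries before recovery held 5, 4 and 5 counts in KO and 5, 5 and 4 in WT, at least 4.32-fold and 4.62-fold higher against a floor of 3 counts over the untreated group, and DESeq2 called it higher in both (adjusted p = 0.016 and 0.022).

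**Figure D2:**
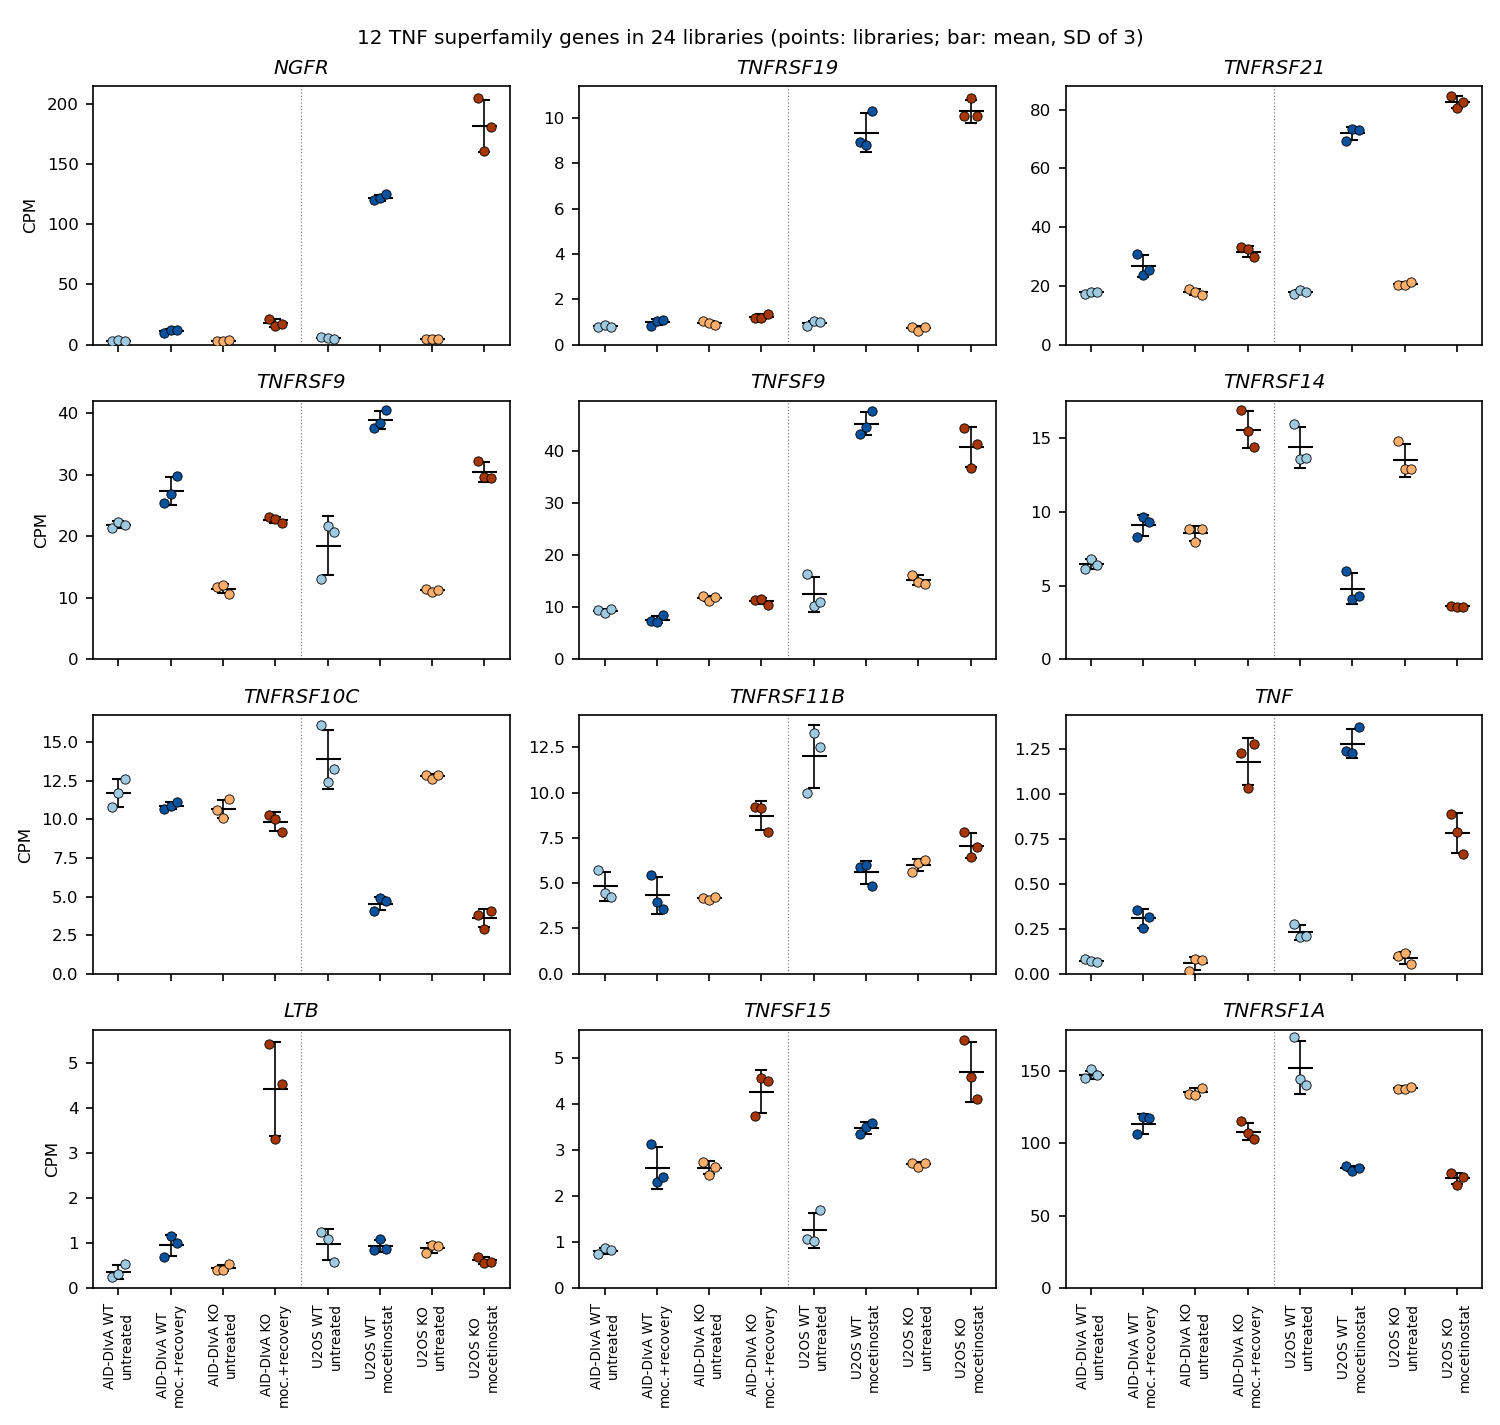
CPM of 12 members in each of the 24 libraries (points), with the mean and SD of the 3 replicates (bars), by cell line, genotype and treatment; axes start at 0 and differ between panels. NGFR, TNFRSF19 and TNFRSF21 stand high in treated U2OS cells before recovery, TNFRSF14 and TNFRSF10C stand low there, and LTB stands high in treated KO AID-DIvA cells.

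In the TNF and lymphotoxin branch, the ligand TNF (ENSG00000232810.3, chromosome 6, 31543344 to 31546113), the founding inflammatory cytokine of the family, was called higher in all 4 comparisons from low levels. After recovery it was at 1.23, 1.03 and 1.28 CPM in treated against 0.0172, 0.0820 and 0.0755 in untreated KO cells and at 0.357, 0.253 and 0.313 against 0.0808, 0.0687 and 0.0633 in WT cells. Before recovery it was at 0.891, 0.788 and 0.666 against 0.0970, 0.118 and 0.0535 CPM in KO and 1.24, 1.23 and 1.37 against 0.279, 0.207 and 0.208 in WT cells. Treated and untreated libraries did not overlap in any of the 4 comparisons. TNF rose by 4.24 in KO (SE 0.32, edgeR adjusted p = 8.2e-06) and 2.12 in WT cells after recovery (SE 0.37, edgeR adjusted p = 4.0e-04), and by 3.09 (SE 0.35, edgeR adjusted p = 4.6e-08) and 2.47 (SE 0.22, edgeR adjusted p = 7.4e-05) before it, with 2.62 without the deviating library. The larger rise in KO cells after recovery did not pass the test of the difference (2.13, SE 0.60, edgeR adjusted p = 0.11). Untreated libraries held at most 18 TNF counts, so its fold changes rest on few reads.

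LTB (lymphotoxin beta, ENSG00000227507.2, chromosome 6, 31548302 to 31550299), which forms membrane heterotrimers with lymphotoxin alpha, lies next to TNF and holds 3 kappaB-form matches in the window printed above. After recovery it was at 5.42, 3.32 and 4.53 CPM in treated against 0.412, 0.396 and 0.529 in untreated KO cells and at 0.695, 1.15 and 1.01 against 0.242, 0.326 and 0.538 in WT cells. All treated libraries were above all untreated ones, and the treated KO libraries were above the treated WT ones. LTB rose by 3.29 in KO (SE 0.21, edgeR adjusted p = 3.0e-06) and 1.33 in WT cells (SE 0.28, edgeR adjusted p = 0.0016), and the response was larger in KO cells by 1.98 (SE 0.41, edgeR adjusted p = 0.024). That difference did not pass without untreated WT replicate 2 or 3 or untreated KO replicate 1 or 2 (1.59 to 2.08, edgeR adjusted p from 0.057 to 0.17). Before recovery, at 0.706, 0.568 and 0.590 against 0.776, 0.961 and 0.945 CPM, it fell by 0.52 in KO cells (SE 0.21, edgeR adjusted p = 0.034), while in WT cells, at 0.840, 1.09 and 0.869 against 1.24, 1.10 and 0.588 CPM, the difference of -0.08 did not pass the test (SE 0.29, edgeR adjusted p = 0.85). Only 63.5% of its stranded counts were on the strand of the gene. On that strand alone the rise after recovery was 4.34 in KO and 2.32 in WT cells, the change before recovery was -1.37 and -1.58 with edgeR adjusted p of 7.4e-04 and 0.005, and the genotype difference of 2.05 no longer passed the test (adjusted p = 0.093).

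LTA (lymphotoxin alpha) lies beside TNF and LTB on chromosome 6 and stayed between 0.317 and 1.31 CPM over all libraries, with a log2 change after recovery of -0.33 in KO and -0.74 in WT cells (edgeR adjusted p = 0.34 and 0.028). The receptor of the lymphotoxin heterotrimers and of TNFSF14, LTBR (ENSG00000111321.6, chromosome 12, 6484211 to 6500733), was among the highest members. It rose after recovery, from 105, 103 and 114 to 166, 134 and 132 CPM in KO and from 81.4, 82.1 and 77.2 to 101, 108 and 105 CPM in WT cells, by 0.42 (SE 0.08, edgeR adjusted p = 0.0029) and 0.39 (SE 0.05, edgeR adjusted p = 1.5e-05). It fell before recovery, from 129, 125 and 128 to 73.5, 68.4 and 69.8 CPM in KO and from 111, 98.4 and 98.6 to 65.1, 63.3 and 59.1 CPM in WT cells, by 0.84 (SE 0.04, edgeR adjusted p = 9.6e-14) and 0.71 (SE 0.08, edgeR adjusted p = 3.3e-04). Treated and untreated libraries did not overlap in any of these comparisons, and the changes stayed under the fold threshold.

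TNFRSF14 (HVEM, ENSG00000157873.13, chromosome 1, 2487078 to 2496821), the receptor of TNFSF14 and of the inhibitory lymphocyte protein BTLA, had the same pair of directions with larger changes. Before recovery it went from 14.8, 12.9 and 12.9 to 3.63, 3.57 and 3.54 CPM in KO and from 16.0, 13.6 and 13.7 to 6.02, 4.11 and 4.28 CPM in WT cells. After recovery it went from 8.85, 7.94 and 8.84 to 16.9, 15.5 and 14.4 CPM in KO and from 6.14, 6.79 and 6.42 to 8.29, 9.64 and 9.34 CPM in WT cells. The groups did not overlap at either stage. TNFRSF14 fell by 1.91 in KO (SE 0.08, edgeR adjusted p = 3.1e-15) and 1.57 in WT cells before recovery (SE 0.16, edgeR adjusted p = 1.6e-04; -1.49 without the deviating library), and rose by 0.87 (SE 0.08, edgeR adjusted p = 3.9e-05) and 0.50 (SE 0.08, edgeR adjusted p = 2.4e-04) after it. Its ligand TNFSF14 (LIGHT) was counted 13, 13 and 16 times in treated against 2, 1 and 1 times in untreated WT U2OS libraries and was called higher there (edgeR adjusted p = 0.0013), from too few reads to describe its size; in KO U2OS cells, with 15, 18 and 11 against 1, 0 and 3 counts, it did not pass the filter of the edgeR test and was called higher by DESeq2 (adjusted p = 0.0016).

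The TNF receptors themselves went in different directions before recovery. TNFRSF1A (TNFR1, ENSG00000067182.3, chromosome 12, 6437923 to 6451280), the death domain receptor found on most cells, was at 79.1, 71.4 and 76.9 CPM in treated against 137, 137 and 139 in untreated KO cells and at 84.0, 81.1 and 82.9 against 173, 144 and 140 in WT cells. It fell by 0.85 (SE 0.05, edgeR adjusted p = 1.3e-13) and 0.87 (SE 0.10, edgeR adjusted p = 2.4e-04) there, and by 0.32 (SE 0.06, edgeR adjusted p = 0.0019) and 0.37 (SE 0.05, edgeR adjusted p = 3.9e-05) after recovery, where it stood at 115, 107 and 103 against 134, 133 and 138 and 106, 118 and 117 against 145, 151 and 147 CPM. All treated libraries were below all untreated ones in the 4 comparisons. TNFRSF1B (TNFR2, ENSG00000028137.12, chromosome 1, 12227060 to 12269285), which recruits TRAF2 and is best known from immune cells, was near 0 without treatment, at 0.0388, 0.0506 and 0.0535 CPM in KO and 0.0464, 0.0689 and 0 in WT U2OS cells. With treatment it reached 1.87, 1.48 and 1.12 CPM in KO and 0.749, 0.417 and 0.698 in WT cells and was called higher by 4.90 (SE 0.36, edgeR adjusted p = 2.6e-11) and 3.86 (SE 0.59, edgeR adjusted p = 0.0011). In AID-DIvA cells it stayed at or below 0.151 CPM in every library and was not tested. With at most 5 counts in an untreated U2OS library, the size of its change is uncertain.

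In the costimulatory branch, the receptor TNFRSF9 (4-1BB, ENSG00000049249.4, chromosome 1, 7979907 to 8000926) and its ligand TNFSF9 (4-1BBL, ENSG00000125657.3, chromosome 19, 6531010 to 6535931) rose together before recovery. TNFRSF9 went from 11.4, 11 and 11.2 to 32.3, 29.6 and 29.5 CPM in KO and from 13.1, 21.7 and 20.7 to 37.7, 38.5 and 40.6 CPM in WT cells, rises of 1.45 (SE 0.06, edgeR adjusted p = 1.0e-15) and 1.08 (SE 0.18, edgeR adjusted p = 0.0015). TNFSF9 went from 16.2, 14.9 and 14.4 to 44.5, 36.8 and 41.3 CPM and from 16.4, 10.3 and 11 to 43.4, 44.7 and 47.7 CPM, rises of 1.44 (SE 0.07, edgeR adjusted p = 9.7e-15) and 1.86 (SE 0.18, edgeR adjusted p = 1.0e-04). In the untreated WT cells the deviating library held the lowest TNFRSF9 and the highest TNFSF9 level, and without it the rises in WT cells were 0.88, under the fold threshold, and 2.10. Without it the 2 genes also differed between the genotypes in opposite directions, with an interaction of 0.57 for TNFRSF9 and -0.67 for TNFSF9 (edgeR adjusted p = 2.9e-06 and 3.4e-06); with it, at 0.37 and -0.42, neither passed the test.

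After recovery TNFRSF9 and TNFSF9 no longer moved together. TNFRSF9 was at 23.1, 22.8 and 22.2 against 11.8, 12 and 10.6 CPM in KO and 25.4, 26.9 and 29.9 against 21.4, 22.4 and 21.8 CPM in WT cells, and rose by 0.98 (SE 0.07, edgeR adjusted p = 7.0e-06) and 0.33 (SE 0.06, edgeR adjusted p = 8.9e-04). The rise was larger in KO cells by 0.66 (SE 0.10, edgeR adjusted p = 0.003), from an untreated level that was lower in KO cells (-0.95, SE 0.06, edgeR adjusted p = 5.3e-09); these untreated libraries enter both values. TNFSF9, at 11.3, 11.5 and 10.4 against 12.1, 11.2 and 11.9 CPM in KO and 7.29, 7.14 and 8.44 against 9.45, 8.90 and 9.60 CPM in WT cells, had log2 changes of -0.08 (adjusted p = 0.44 in edgeR) and -0.28 (0.013).

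CD70 (ENSG00000125726.6, chromosome 19, 6583194 to 6604114) is the ligand of CD27. After recovery it went from 12.2, 11.7 and 12.6 to 22.5, 18.4 and 19.9 CPM in KO cells, while WT cells held 8.59, 8.78 and 9.35 untreated and 9.24, 9.58 and 8.72 CPM treated. The KO libraries separated completely and the WT libraries overlapped. CD70 rose by 0.73 in KO (SE 0.08, edgeR adjusted p = 1.0e-04), differed by 0.05 in WT cells (SE 0.07, edgeR adjusted p = 0.6), and the responses differed by 0.69 (SE 0.11, edgeR adjusted p = 0.0037). Before recovery it rose in both genotypes, from 15.2, 14.5 and 14.0 to 28.4, 23.3 and 26.6 CPM by 0.85 and from 14.8, 11.6 and 11.9 to 26.0, 27.0 and 23.7 CPM by 1.01 (edgeR adjusted p = 1.6e-10 and 3.0e-04), with no difference that passed the test (-0.16, SE 0.14, edgeR adjusted p = 0.69). The rise in WT cells was 0.94 to 0.99, under the fold threshold, without untreated replicate 2 or 3 or treated replicate 1 or 2. The counts listed for CD27 (ENSG00000139193.3, chromosome 12, 6554033 to 6560884) cannot be assigned to the receptor, since 0.487% of its stranded counts were on the gene's strand and CD27-AS1 overlaps it on the other strand. Its level over both strands was 0.538, 0.293 and 0.408 CPM in treated against 0.911, 0.978 and 0.731 in untreated KO U2OS cells and 0.611, 0.714 and 0.527 against 0.882, 1.12 and 1.71 in WT cells, falls of 1.06 (SE 0.25, edgeR adjusted p = 7.1e-04) and 0.99 (SE 0.28, edgeR adjusted p = 0.022). In KO cells the fall was under the fold threshold without untreated replicate 2 (-0.97) or treated replicate 2 (-0.88). After recovery it was at 0.342, 0.740 and 0.542 against 0.550, 0.560 and 0.604 CPM in KO and 0.752, 0.668 and 0.956 against 0.525, 0.722 and 0.648 CPM in WT cells, with overlapping groups.

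CD40 (ENSG00000101017.9, chromosome 20, 44746911 to 44758502), the receptor of the T cell ligand CD40LG, which had no counts, rose in all 4 treatment comparisons. It stood at 74.0, 69.2 and 71.9 against 52.8, 50.8 and 49.7 CPM in KO and 73.0, 75.6 and 75.4 against 52.4, 50.9 and 49.1 CPM in WT cells before recovery, and at 47.4, 41.1 and 41.8 against 36.8, 34.1 and 38.0 and 42.2, 39.4 and 38.5 against 34.4, 33.5 and 33.3 CPM after it. The groups did not overlap, and the rises of 0.50 and 0.57 before and 0.26 and 0.26 after recovery (edgeR adjusted p = 2.5e-09, 3.5e-04, 0.02 and 0.0012) stayed under the fold threshold. TNFRSF8 (CD30, ENSG00000120949.10, chromosome 1, 12123434 to 12204264), known as a Hodgkin lymphoma marker, rose by 0.55 in KO cells after recovery (SE 0.09, edgeR adjusted p = 0.0014), from 7.56, 7.65 and 8.93 to 12.6, 10.9 and 11.9 CPM. In WT cells it went from 12.1, 12.2 and 13.9 to 14.3, 14.8 and 13.9 CPM, 0.18 (SE 0.07, edgeR adjusted p = 0.053). Before recovery it stood at 9.19, 8.74 and 8.83 against 9.68, 8.08 and 8.70 CPM in KO and 8.31, 7.90 and 9.06 against 8.69, 8.58 and 7.88 CPM in WT cells, and neither difference passed the test.

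TNFSF4 (OX40L, ENSG00000117586.6, chromosome 1, 173152873 to 173176452) rose by 2.13 in WT U2OS cells before recovery (SE 0.34, edgeR adjusted p = 0.0014; 1.87 without the deviating library), from 0.155, 0.234 and 0.417 to 0.962, 1.21 and 1.26 CPM. In KO U2OS cells it was at 0.168, 0.257 and 0.166 against 0.0582, 0.186 and 0.0891 CPM, with a difference of 0.78 that did not pass the test (SE 0.47, edgeR adjusted p = 0.15), and the genotypes were not shown to differ (-1.34, SE 0.61, edgeR adjusted p = 0.37). In AID-DIvA cells it was at 0.0570, 0.196 and 0.0434 against 0.240, 0.205 and 0.189 CPM in KO and 0.432, 0.345 and 0.331 against 0.242, 0.223 and 0.269 CPM in WT cells, and neither response passed the test. TNFSF8 (CD30L) was called higher in WT cells after recovery (edgeR adjusted p = 0.0026) on 57, 10 and 17 counts against 1, 0 and 2. On its own strand these libraries held 1, 0 and 0 and 1, 0 and 2 counts, so the call does not rest on reads of the gene's strand. TNFSF18 (GITRL) was counted 9, 9 and 5 times in treated and 0, 0 and 0 times in untreated KO U2OS libraries, at least 7.11-fold higher against a floor of 3 counts over the untreated group, did not pass the filter of the edgeR test, and was called higher by DESeq2 (adjusted p = 0.0013). TNFSF8, TNFSF14, TNFSF18, TNFSF12, TNFRSF10D and FASLG stayed below 1 CPM in every group mean and were singled out after their values were seen.

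**Figure D3:**
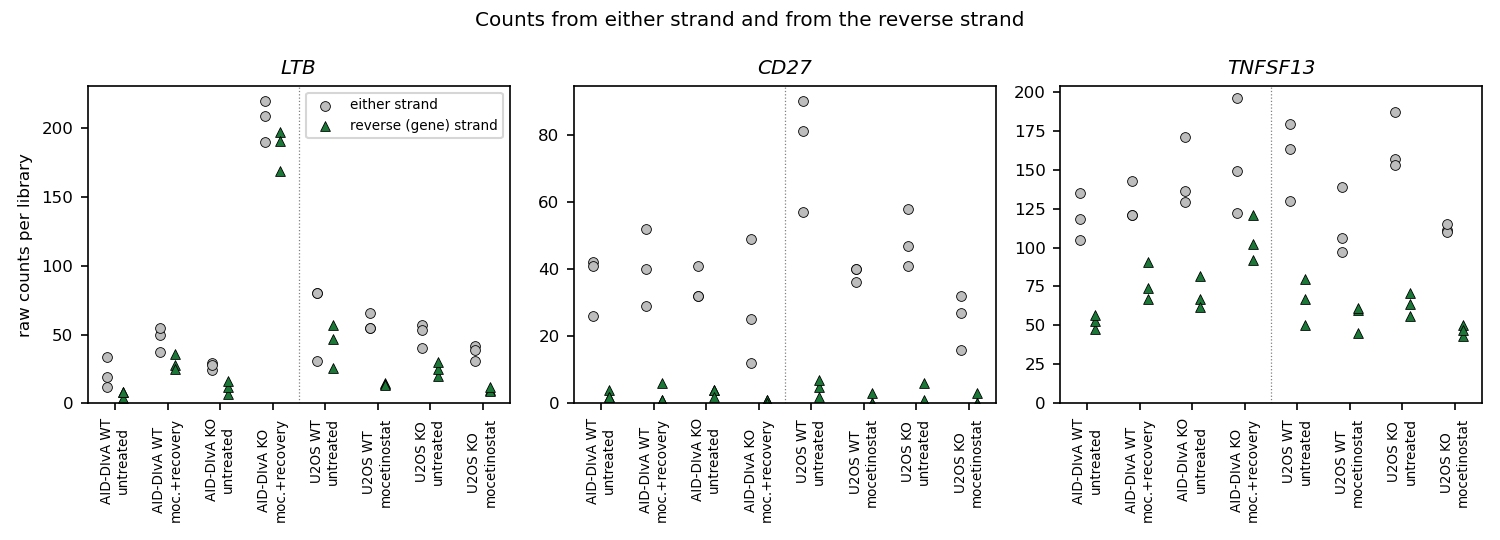
Raw counts of LTB, CD27 and TNFSF13 in each library, counted from either strand (circles) and from the reverse strand, which is the gene's own strand (triangles); each axis starts at 0. For CD27 the triangles lie near 0 in every group, whereas for LTB the triangles of the treated KO AID-DIvA libraries stand above those of all other groups.

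In the bone branch, TNFRSF11B (osteoprotegerin, ENSG00000164761.4, chromosome 8, 119935796 to 119964439), the soluble decoy that binds RANKL and TRAIL, responded differently in the genotypes at both stages. After recovery it went from 4.19, 4.07 and 4.23 to 9.21, 9.13 and 7.81 CPM in KO cells, whereas WT cells held 5.72, 4.48 and 4.25 untreated and 5.47, 3.94 and 3.55 CPM treated. Before recovery it was at 7.82, 6.42 and 6.99 against 5.62, 6.11 and 6.26 CPM in KO and 5.91, 6.03 and 4.87 against 10, 13.3 and 12.5 CPM in WT cells. In KO cells the treated libraries were above the untreated ones at both stages, and in WT cells they were below them before recovery and overlapped with them after it. The log2 changes after recovery were 1.07 in KO (SE 0.09, edgeR adjusted p = 1.7e-05) and -0.14 in WT cells (SE 0.16, edgeR adjusted p = 0.51), a difference of 1.21 (SE 0.20, edgeR adjusted p = 0.0055). Before recovery they were 0.25 (SE 0.09, edgeR adjusted p = 0.018) and -1.09 (SE 0.14, edgeR adjusted p = 4.8e-04), a difference of 1.34 (SE 0.17, edgeR adjusted p = 6.8e-04), or -1.21 in WT cells and 1.46 for the difference without the deviating library. The change in WT cells was -0.99 without treated replicate 3. Untreated KO U2OS cells held less TNFRSF11B than WT (-1.0, SE 0.13, edgeR adjusted p = 0.0022), just short of the fold threshold, and -1.11 without the deviating library, which is past it; these untreated libraries also enter the interaction. RANKL, TNFSF11, had at most 1 count in any library, and RANK, TNFRSF11A, at most 0.107 CPM, so neither partner was tested.

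Of the BAFF and APRIL branch, which supports B cell survival, 2 members were measured above 1 CPM. TNFRSF13C (BAFF-R, ENSG00000159958.3, chromosome 22, 42321045 to 42322822) went from 3.90, 4.69 and 4.42 to 2.05, 1.91 and 2.19 CPM in KO and from 3.37, 3.73 and 3.26 to 1.89, 2.0 and 1.83 CPM in WT cells before recovery, falls of 1.07 (SE 0.12, edgeR adjusted p = 2.9e-08) and 0.85 (SE 0.12, edgeR adjusted p = 8.9e-04). After recovery it was at 3.42, 2.69 and 2.52 against 3.78, 3.54 and 4.40 CPM in KO, a fall of 0.45 (SE 0.13, edgeR adjusted p = 0.021), and at 2.67, 2.03 and 2.76 against 3.19, 2.94 and 3.10 CPM in WT cells, a difference of -0.29 that did not pass the test (SE 0.13, edgeR adjusted p = 0.078). Before recovery treated and untreated libraries did not overlap in either genotype. TNFSF13 (APRIL, ENSG00000161955.12, chromosome 17, 7461609 to 7464925) fell before recovery, from 3.04, 3.15 and 2.73 to 1.87, 2.02 and 1.74 CPM in KO and from 2.52, 2.47 and 2.46 to 1.48, 2.10 and 1.83 CPM in WT cells, by 0.66 and 0.46 (edgeR adjusted p = 7.9e-05 and 0.045). After recovery it was at 3.48, 2.96 and 3.23 against 2.34, 2.34 and 2.44 CPM in KO, a rise of 0.44 (SE 0.10, edgeR adjusted p = 0.0081), and at 2.27, 2.79 and 2.63 against 2.12, 2.03 and 2.14 CPM in WT cells. The gene overlaps TNFSF12 and the readthrough gene on the same strand, and 48.9% of its stranded counts were on its own strand. On that strand alone the change before recovery was -0.56 in KO and -0.21 in WT cells (edgeR adjusted p = 0.012 and 0.49), so the fall in WT cells did not pass there, nor in DESeq2 over both strands (adjusted p = 0.063). The change after recovery was 0.92 in KO and 0.74 in WT cells (edgeR adjusted p = 9.7e-04 and 0.0013).

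TNFRSF19 (TROY, ENSG00000127863.11, chromosome 13, 24144509 to 24250232), a receptor expressed in the embryo and in neural and hair follicle progenitors, was called higher before recovery in both genotypes. It went from 0.795, 0.590 and 0.784 to 10.1, 10.9 and 10.1 CPM in KO and from 0.836, 1.03 and 0.986 to 8.95, 8.79 and 10.3 CPM in WT U2OS cells, rises of 3.85 (SE 0.12, edgeR adjusted p = 7.8e-18) and 3.31 (SE 0.13, edgeR adjusted p = 2.3e-06). After recovery it stood at 1.17, 1.16 and 1.34 against 1.05, 0.957 and 0.869 CPM in KO and 0.827, 1.04 and 1.10 against 0.768, 0.859 and 0.791 CPM in WT cells, with differences of 0.35 and 0.30 that did not pass the test (edgeR adjusted p = 0.087 and 0.19). TNFRSF12A (ENSG00000006327.9, chromosome 16, 3068446 to 3072384), the highest member, fell before recovery, from 208, 210 and 210 to 154, 118 and 128 CPM in KO and from 251, 181 and 173 to 115, 106 and 116 CPM in WT cells, by 0.64 (SE 0.07, edgeR adjusted p = 5.2e-07) and 0.83 (SE 0.15, edgeR adjusted p = 0.0023). Without the deviating library the change in WT cells was -0.64. After recovery, at 226, 181 and 170 against 179, 165 and 210 CPM in KO, the groups overlapped, and at 172, 170 and 167 against 142, 155 and 158 CPM in WT cells it rose by 0.17 (SE 0.04, edgeR adjusted p = 0.0075). EDAR, the receptor of ectodysplasin A, stayed at or below 0.417 CPM.

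Without treatment, 2 of 24 tested members were called between KO and WT AID-DIvA cells, where 4.58% of all genes tested were called in either direction, and 2 of 26 in U2OS cells, against 4.26%. At an adjusted p under 0.05 alone the counts were 12 and 6, against 36.7% and 15.2% of all genes. Without the deviating library the count in U2OS cells was 4, with TNFRSF11B and TNFSF4 lower in KO cells in addition, and 15 members passed at an adjusted p under 0.05 alone. The shares of all genes above are those of the fit with all libraries, so these counts cannot be set against them. The 2 members were TNFSF15, described above, and TNFSF12 (TWEAK), the ligand of TNFRSF12A. TNFSF12 was counted 3, 2 and 1 times in KO and 20, 26 and 34 times in WT AID-DIvA libraries, and 2, 1 and 1 against 18, 33 and 15 times in U2OS libraries. KO libraries lay below all WT libraries, by -3.78 (SE 0.41, edgeR adjusted p = 2.2e-06) and -3.72 (SE 0.52, edgeR adjusted p = 0.0035), and by -5.01 and -5.12 on the gene's own strand. The low counts in KO cells leave the size of this difference uncertain. TNFRSF9 was lower in untreated KO cells in both lines, by 0.95 (SE 0.06, edgeR adjusted p = 5.3e-09) and 0.73 (SE 0.18, edgeR adjusted p = 0.034), and LTBR higher, by 0.40 and 0.30 (edgeR adjusted p = 1.3e-05 and 0.036), under the fold threshold.

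The response to mocetinostat differed between the genotypes for 5 of 26 members after recovery, where 1.21% of all genes tested passed the same test (adjusted p under 0.05, no fold threshold). The difference, KO minus WT response, was positive for CD70, LTB, TNFRSF11B and TNFRSF9 and negative for TNFSF15, against 0.762% and 0.451% of all genes in these directions. The count was 3 without untreated WT replicate 2 or 3 or untreated KO replicate 1 or 2, the LTB and TNFSF15 differences being lost, and 4 with a replicate block, without TNFSF15. Before recovery the difference was positive for NGFR and TNFRSF11B, 2 of 29 members, against 1.10% of all genes, and negative for 0 in edgeR or DESeq2, against 1.06%, with 3 negative at an unadjusted p under 0.05 and 2.15% of all genes differing in either direction. A positive difference is a larger rise in KO cells for NGFR, whereas TNFRSF11B fell in WT cells and was at 0.25 in KO cells. Without the deviating library the difference before recovery passed the test for 5 members, with TNFRSF9 positive and TNFSF9 and LTBR negative in addition. No share of all genes is given beside this count. TNFSF9 rose in both genotypes, and LTBR fell in both, by 0.84 in KO and 0.65 in WT cells in that fit.

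**Figure D4:**
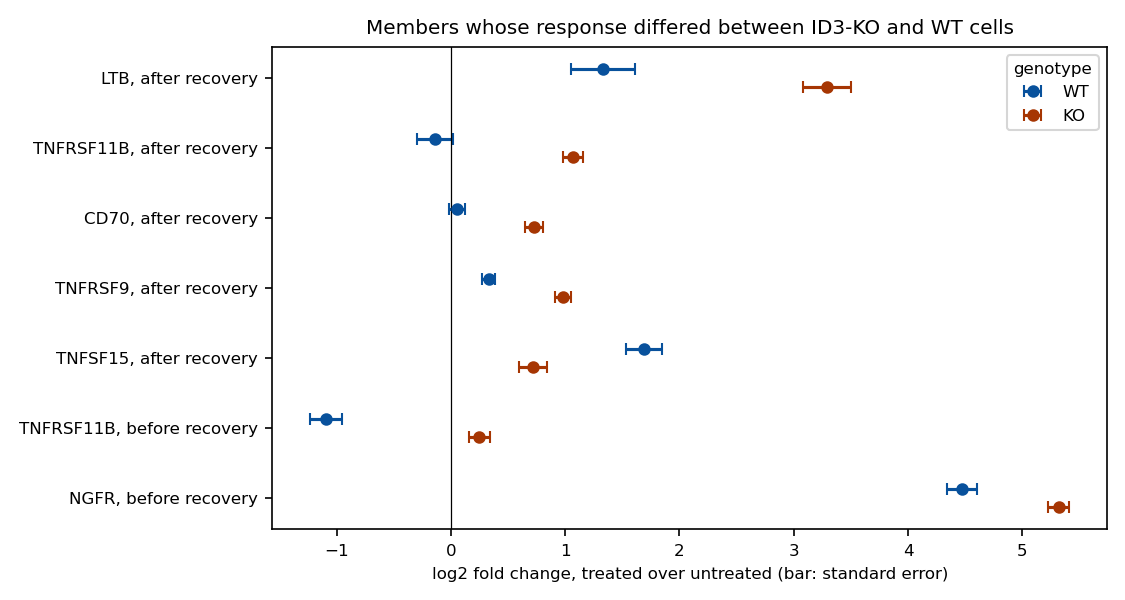
Log2 fold change (point) and its standard error (bar) of treated over untreated cells in WT and KO, for the 7 cases in which the genotype by treatment interaction passed the edgeR test. TNFRSF11B after recovery rose by 1.07 in KO and was at -0.14 in WT cells, and TNFSF15 is the case in which the WT point lies to the right of the KO point.

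The response before recovery minus the response after recovery passed the test for 20 of 30 members in KO and 20 of 30 in WT cells, where 46.0% and 45.4% of all genes did. In KO cells 8 of these differences were positive and 12 negative, against 24.3% and 21.7% of all genes, and in WT cells 9 and 11, against 22.8% and 22.6%. Positive differences were those of TNFRSF19 (3.49 in KO and 3.01 in WT) and NGFR (2.87 and 2.58). That of TNFRSF1B (3.86 and 3.68) rests on few counts outside treated U2OS cells, and this receptor was not tested after recovery on its own. TNFSF9, TNFSF4, TNFRSF21, TNFRSF9 and CD40 were also positive in both genotypes, and CD70 in WT cells. The largest negative ones were those of LTB (-3.83 in KO and -1.42 in WT, or -5.74 and -3.93 on the gene's own strand), TNFRSF14 (-2.78 and -2.07), TNFRSF10C (-1.70 and -1.51) and LTBR (-1.27 and -1.10). In KO cells the smaller differences of CD40, CD27, TNFSF4 and TNFRSF9 did not pass without some single libraries (12, 6, 7 and 2 of them), and TNFRSF1B in WT cells did not pass without untreated AID-DIvA replicate 3 (3.08, edgeR adjusted p = 0.13). These differences compare U2OS with AID-DIvA experiments and cannot be told apart from the effect of the line. They also rest on the titles of the AID-DIvA libraries.

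**Figure D5:**
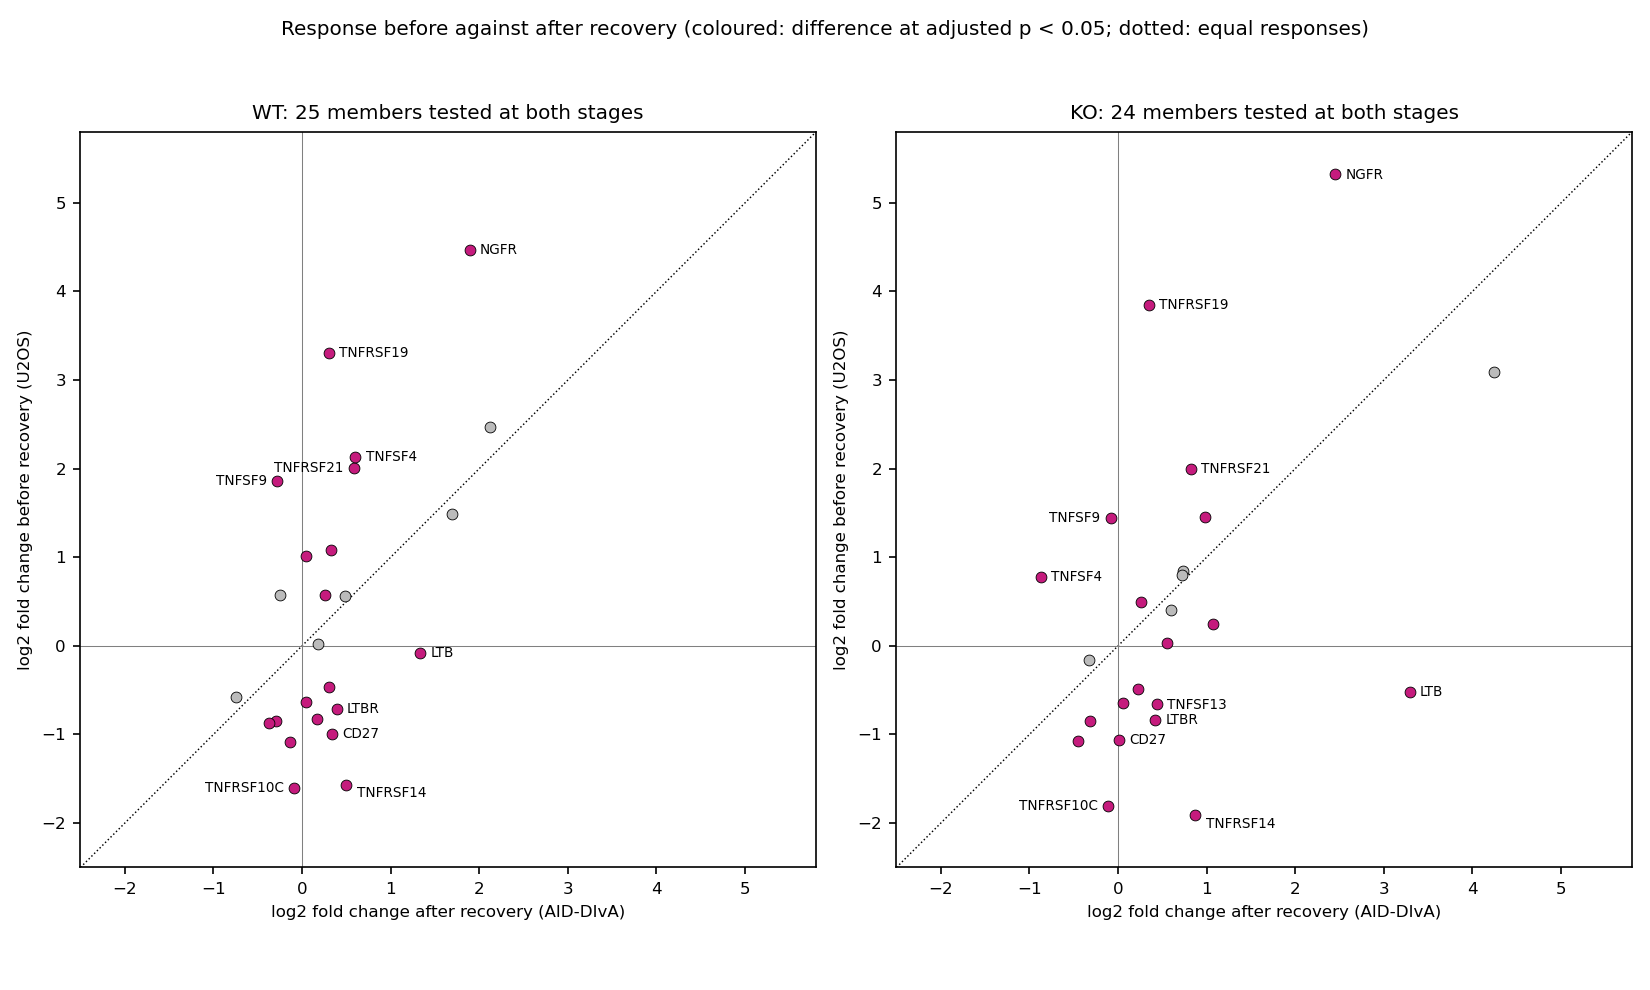
Log2 response before recovery in U2OS (vertical axis) against the response after recovery in AID-DIvA cells (horizontal axis) for the members tested at both stages, in KO and WT cells; coloured points differ between the stages at an edgeR adjusted p under 0.05, the dotted line marks equal responses, and names are given where the difference passes about 1. NGFR and TNFRSF19 lie above the line and TNFRSF14, TNFRSF10C and LTBR below it in both panels.

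Genes that act next to the family were examined as lists. Of 4 family genes whose names fall outside the rule (FAS, EDA, EDA2R and RELT), EDA, the ligand of EDAR, was called higher before recovery, by 1.47 in KO (SE 0.06, edgeR adjusted p = 2.5e-16) and 1.37 in WT cells (SE 0.08, edgeR adjusted p = 7.6e-06), from 11.9, 12.1 and 12.6 to 33.1, 34.5 and 33.4 CPM and from 11.4, 12.9 and 12.3 to 30.5, 31.7 and 31.7 CPM. FAS, the receptor of FASLG, fell before recovery by 0.64 in KO and 0.44 in WT cells (edgeR adjusted p = 3.5e-08 and 0.0044). Of 35 genes of proximal signalling and receptor shedding, 34 were tested. After recovery 4 were called higher in KO and 4 in WT cells, against 4.90% and 4.86% of all genes. Before it 4 and 4 were called higher, against 14.6% and 13.6%, and 1 and 1 lower, against 5.77% and 5.06%. The genes called need not be the same in each comparison. Median log2 changes were 0.15 and 0.13 after recovery and 0.00 and 0.02 before it, against -0.02, -0.00, 0.00 and 0.01 over all genes. TRAF1, an adaptor of TNFRSF1B and other receptors of the branch, rose by 3.94 in KO and 2.11 in WT cells after recovery and by 2.81 and 2.60 before it, and responded more in KO cells after recovery (1.83, SE 0.18, edgeR adjusted p = 1.1e-04). BIRC3 (cIAP2), a ubiquitin ligase of the receptor complexes, rose by 3.33, 2.35, 3.59 and 2.98 in the same order, with a difference between the genotypes after recovery of 0.99 (SE 0.21, edgeR adjusted p = 0.034). TNFAIP3 (A20), a brake on NF-kappaB signalling, rose by 1.56, 1.22, 2.06 and 1.75. CFLAR (c-FLIP), which blocks caspase-8 activation at death receptors, fell before recovery by 1.52 in KO (SE 0.06, edgeR adjusted p = 1.4e-16) and 1.27 in WT cells (SE 0.09, edgeR adjusted p = 2.2e-05), and MLKL, the executor of necroptosis, was called higher after recovery (1.23 and 1.16). Untreated KO cells held more BIRC2 (cIAP1) than WT cells in both lines (1.47 and 1.02).

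The list of NF-kappaB targets held 16 names, of which IL8 and CXCL8 stand for the same gene. All 15 genes were in the tables and 12 were tested. After recovery 6 were called higher in KO and 7 in WT cells, and before recovery 4 and 3, against 4.90%, 4.86%, 14.6% and 13.6% of all genes, with median log2 changes of 1.07, 1.08, 0.79 and 0.83 over the tested genes of the list against -0.02, -0.00, 0.00 and 0.01 over all genes. CCL20, a chemokine, rose by 3.77 in KO and 3.82 in WT cells after recovery and by 5.39 and 5.47 before it. IL8, a neutrophil chemokine, rose by 4.92 and 4.09 after and 7.23 and 4.33 before recovery, and the latter 2 differed between the genotypes by 2.91 (SE 0.23, edgeR adjusted p = 1.2e-05). Untreated KO U2OS cells held less IL8 than WT cells (-2.95, SE 0.22, edgeR adjusted p = 2.1e-04), and these libraries enter that difference. Over the 12 tested genes, the interaction before recovery was positive for 2 and negative for 1, against 1.10% and 1.06% of all genes. After recovery it was positive for 0 and negative for 1, against 0.762% and 0.451%. At an edgeR adjusted p under 0.05 alone, untreated KO U2OS cells held 0 of the 12 higher and 7 lower. In AID-DIvA cells the counts were 3 and 5. Of all genes, 15.2% and 36.7% differed in either direction.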

How the data were processed

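Total RNA of 24 libraries had been prepared with the Illumina TruSeq Stranded Total RNA kit and sequenced paired-end (100 bp). The authors aligned the reads to GRCh37 (hg19) with STAR and deposited raw gene counts from featureCounts; tool versions were not given in the sources used here. The deposited counts from either strand were used, and the reverse-strand counts, which lie on the strand of the gene, as an alternative. Normalised columns were not used. Gene identifiers and coordinates are those of the files, in GRCh37, with numbers counted from 1.

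Groups followed sample titles and library names. Treated and untreated libraries (3 against 3) were compared within genotype and line with edgeR 4.0.16 in R 4.3.3 (TMM, filterByExpr, robust quasi-likelihood fit, two-sided, Benjamini-Hochberg over all genes tested). Calls required an adjusted p under 0.05 and a log2 fold change beyond 1, and an adjusted p under 0.05 alone for differences between responses. Standard errors were derived from the F statistic. CPM used TMM factors over all 24 libraries. The test was tried on simulated data first. The methods call the replicates biological without saying how they were raised, and p-values measure the spread between these libraries, and counting error is the limit at low counts. Members called with a group mean of at least 1 CPM, or with a response that differed, were given by library, and other members by range and counts. The members and gene lists were chosen with earlier results of these data known, and 1 lymphocyte marker is not reported here. Alternatives were DESeq2 1.42.0, its size factors in edgeR, no filter, at least 10 counts in every library, no fold threshold, reverse-strand counts, a fit over all groups of a line, a replicate block and leaving out each library. Shares of all genes are given for the main fits only. Promoters came from a RefSeq table for GRCh38.p14, matched by symbol.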

Additional observations from a re-analysis of the deposited data

Results flagged for a closer look

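Responses that differed between the genotypes or between the stages, each by a test of the difference itself at an edgeR adjusted p under 0.05, are collected here as log2 differences. Those that use AID-DIvA libraries hold under the sample titles, which the treatment entry contradicts.

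Between the genotypes (KO minus WT response) after recovery, TNFRSF9 differed by 0.66, LTB by 1.98, TNFRSF11B by 1.21, CD70 by 0.69 and TNFSF15 by -0.96. The LTB and TNFSF15 differences did not pass without some single untreated libraries, nor that of LTB on its own strand. Before recovery TNFRSF11B differed by 1.34 and NGFR by 0.86.

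Between the stages (response before minus after recovery), the receptors that were positive in both genotypes were TNFRSF19, with 3.49 in KO and 3.01 in WT cells, NGFR (2.87 and 2.58), TNFRSF21 (1.18 and 1.41), TNFRSF9 (0.46 and 0.75) CD40 (0.23 and 0.31) and, from few counts, TNFRSF1B (3.86 and 3.68). The positive ligands were TNFSF4 (1.67 in KO and 1.53 in WT) and TNFSF9 (1.51 and 2.14), and CD70 passed in WT cells (0.96). Negative in both genotypes were the receptors TNFRSF14 (-2.78 in KO and -2.07 in WT), TNFRSF10C (-1.70 and -1.51), LTBR (-1.27 and -1.10), TNFRSF11B (-0.83 and -0.95), TNFRSF25 (-0.72 and -0.67), TNFRSF12A (-0.71 and -1.0), TNFRSF13C (-0.63 and -0.56) and TNFRSF1A (-0.54 and -0.50). The differences of the counts listed for CD27 (-1.06 and -1.32) were also negative, and 0.487% of the stranded counts of CD27 were on the gene's strand. The negative ligands were LTB (-3.83 in KO and -1.42 in WT, or -5.74 and -3.93 on its own strand) and TNFSF13 (-1.10 and -0.76), and TNFRSF8 passed in KO cells (-0.53). The stage cannot be told apart from the cell line and the experiment.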

How the results depend on the processing

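Without the fold threshold, members higher and lower numbered 14 and 2 in KO and 12 and 3 in WT cells after recovery, 12 and 10 in KO cells before recovery and 10 lower in WT cells before recovery, and untreated genotypes differed for 12 members in AID-DIvA and 6 in U2OS cells. With at least 10 counts in every library, which tests fewer genes, 3 members were higher in WT cells after recovery and 1 differed between untreated genotypes in each line. In fits that each left out 1 library, members higher and lower ranged from 4 to 5 and 0 to 1 (KO after recovery; 1 lower without treated KO replicate 2), 5 to 5 and 0 to 0 (WT after), 7 to 9 and 3 to 4 (KO before) and 10 to 11 and 2 to 4 (WT before). Members differing between untreated genotypes ranged from 2 to 2 in AID-DIvA and 1 to 4 in U2OS cells (4 without WT replicate 1, 1 without WT replicate 2 or KO replicate 1), interactions from 3 to 6 after recovery (3 without untreated WT replicate 2 or 3 or untreated KO replicate 1 or 2) and 2 to 5 before it (5 without untreated WT replicate 1), and stage differences from 17 to 21 in KO and 19 to 22 in WT cells. Of 1803 alternative values for 85 member calls, 1748 stayed past the threshold, 55 did not and 0 reversed. Beside single libraries, the calls lost were CD70 in WT cells before recovery with DESeq2 (0.99) or its size factors (1.0), the LTB interaction on the reverse strand, the TNFSF15 interaction under a replicate block and the stage difference of CD40 in KO cells with no filter (edgeR adjusted p = 0.16). Stage differences in KO cells that did not pass without single libraries ran from 0.19 to 0.23 for CD40 (12 libraries), -0.74 to -1.05 for CD27 (KO replicate 2 of any group, treated U2OS replicate 3 or untreated AID-DIvA replicate 1), 1.30 to 1.70 for TNFSF4 (7 libraries; 2.83 and past the test without treated AID-DIvA replicate 2) and 0.42 for TNFRSF9 (untreated AID-DIvA replicate 2 or treated U2OS replicate 1). DESeq2 shifted the median of all genes before recovery to 0.10 in KO and 0.11 in WT cells, against 0.00 and 0.01 in edgeR.

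Same-numbered replicates were treated as unpaired. Their correlations ran from -0.383 to 0.26, and 17 of 36 libraries matched best with their own number, which does not exclude pairing. With a replicate block the counts were 4 and 0, 5 and 0, 7 and 4, and 11 and 3 in the order above, 2 and 2 for untreated genotypes, 4 and 2 for interactions and 20 and 20 for stage differences; the TNFSF15 interaction of -0.95 was the interaction lost (edgeR adjusted p = 0.071).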
